A study of Mus musculus with 4 samples.

Results

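miR-155 is a single microRNA (miRNA) hairpin whose processing releases a 5p and a 3p mature arm, and its members here were the rows named mmu-miR-155-5p and mmu-miR-155-3p (mmu for mouse, left out below), 2 of 847 rows in a table of miRNA read counts. Small RNA was sequenced from macrophages of C57BL/6J mice aged 6 to 8 weeks. The AML spleen and AML bone marrow (BM) libraries came from mice taken at day 18 after they had received GFP+ MLL-AF9 leukaemia cells, with no irradiation, and the normal spleen and normal BM libraries from mice labelled normal. MLL-AF9 is a gene fusion that drives acute myeloid leukaemia (AML), and transplanted mice survived 35 to 40 days, per the labels. The question posed was how miRNAs of leukaemia-associated macrophages differ from those at homeostasis. Each combination of tissue and state had 1 library, so the differences below could not be set against a spread between replicates, and they hold for these libraries only. The labels do not say which markers defined the sort, how many mice were pooled, or whether spleen and BM were taken from the same animals.

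miR-155 is cut from a long non-coding transcript, Mir155hg (also called Bic). In mouse macrophages the transcript is switched on by Toll-like receptor and cytokine signalling through NF-kB and AP-1, and activated B and T cells make it too. The 5p arm is the guide strand that enters Argonaute, and it represses regulators such as Socs1 and Inpp5d, which restrain inflammatory signalling. Sustained miR-155 in mouse blood-forming cells leads to myeloproliferation, which is why it is followed in myeloid leukaemia.

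The mature arms and the hairpin are shown because the arms differ in seed, the part of a miRNA that pairs with its targets. Capitals mark the seed (bases 2 to 8) in the mature sequences and both mature arms in the hairpin, all from RefSeq on GRCm38.p6.
miR-155-5p: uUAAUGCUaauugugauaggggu
miR-155-3p: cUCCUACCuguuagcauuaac
Mir155 hairpin: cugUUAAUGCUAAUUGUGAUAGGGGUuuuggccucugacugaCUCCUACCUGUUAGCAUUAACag
The hairpin lies on the plus strand at chr16:84714140-84714204, inside exon 2 of both Mir155hg transcripts that GENCODE places there. The 5p arm takes up bases 4 to 26 of the 65-base hairpin and the 3p arm bases 43 to 63, with 16 bases between them. In the minimum free energy fold computed with RNAfold (-27.2 kcal per mol), 19 of the 23 bases of the 5p arm paired with the 3p arm, and all 7 seed bases were paired. No other mature mouse miRNA name in the RefSeq table (1679 names) had the seed of either arm, so neither arm has a seed family there.

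The reads of miR-155 came almost entirely from the 5p arm. This arm, mmu-miR-155-5p, had 95 counts in AML spleen, 100 in AML BM, 824 in normal spleen and 14 in normal BM. The 3p arm, mmu-miR-155-3p, had 0 counts in AML spleen, 1 in AML BM, 1 in normal spleen and 0 in normal BM, all below a floor of 3 counts, so no ratio is given for it. A floor of 3 counts corresponds to 15.5 CPM in AML spleen, 10.7 CPM in AML BM, 7.65 CPM in normal spleen and 14.5 CPM in normal BM, where CPM is counts per 1000000 reads of the scaled library. Over the 4 libraries the 5p arm held 99.8% of 1035 miR-155 reads (exact Clopper-Pearson 95% interval 99.3% to 99.98%). For comparison, the median share of the more abundant arm over hairpins with at least 30 reads was 96.7% in AML spleen (94 hairpins), 95% in AML BM (106), 94.6% in normal spleen (106) and 97.5% in normal BM (101). A share of at least 99% was common, in 37 of these hairpins in AML spleen, 39 in AML BM, 33 in normal spleen and 41 in normal BM.

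The order of miR-155-5p levels was normal spleen, AML spleen, AML BM and normal BM, from high to low. The level was 492 CPM in AML spleen, with an exact Poisson 95% interval of 398 to 602. In AML BM it was 357 CPM (290 to 434), in normal spleen 2102 CPM (1960 to 2250) and in normal BM 67.5 CPM (36.9 to 113). These intervals, like all intervals below, cover counting error only, since each group had 1 library. Reads carried no molecular identifiers in the table, so repeated reads of 1 molecule were counted as separate and the intervals may be too narrow. The intervals of normal spleen and normal BM overlapped with no other library, whereas those of the AML libraries overlapped each other. By level miR-155-5p ranked 109 of 535 detected rows in AML spleen, 129 of 547 in AML BM, 56 of 680 in normal spleen and 223 of 505 in normal BM. The same order of the 4 levels was found in 34 of 246 miRNAs (13.8%) that reached 30 counts somewhere, miR-155-5p included. In sorted bulk samples, fewer cells that make a miRNA and less of it per cell cannot be told apart.

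**Figure D1:**
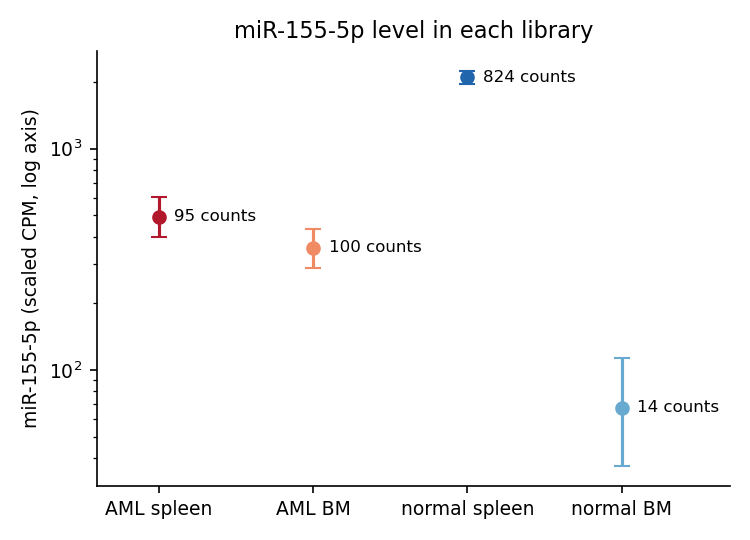
Level of miR-155-5p in scaled CPM (log axis) in each of the 4 libraries, with exact Poisson 95% intervals and the read count beside each point. AML spleen at 492 CPM and AML BM at 357 CPM lie between normal spleen at 2102 CPM and normal BM at 67.5 CPM.

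Total counts were 180227 to 435492 per library, and between 505 and 680 of the 847 rows were detected. Sums over marker lists also differed between the libraries. Lymphocyte miRNAs (7 of 7 detected in each library) summed to 50218 CPM in AML spleen, 45089 CPM in AML BM, 109714 CPM in normal spleen and 19067 CPM in normal BM. The largest part of each sum was miR-181a-5p, which progenitors make too. It had 33057 CPM in AML spleen, 36519 CPM in AML BM, 73049 CPM in normal spleen and 13150 CPM in normal BM. The myeloid and pan-haematopoietic list of both arms of miR-223 and miR-142a (4 of 4 detected) summed to 2488 CPM in AML spleen, 1797 CPM in AML BM, 7179 CPM in normal spleen and 723 CPM in normal BM. The sums of both lists ran in the same order over the libraries as miR-155-5p, but not all of their members did. That order was found in both arms of miR-142a and in neither arm of miR-223, and in 1 of the 7 lymphocyte miRNAs, miR-150-5p. Of 7 lymphocyte miRNAs, 5 were called lower in AML spleen than in normal spleen (21.3% of all miRNAs compared) and 2 higher in AML BM than in normal BM (13.4% of all), a call being at least 2-fold with an interval that excludes 1 and at least 30 counts in the larger library. Stromal and endothelial miRNAs (7 of 7 detected) summed to 22012 CPM in AML spleen, 22058 CPM in AML BM, 3642 CPM in normal spleen and 31817 CPM in normal BM. Muscle miRNAs (3 of 3) ranged from 2306 CPM in normal spleen to 35530 CPM in normal BM, and erythroid miRNAs (4 of 4) from 7664 CPM in AML BM to 9784 CPM in normal BM. Blast and progenitor miRNAs (6 of 6) summed to 37561 CPM in AML spleen, 41280 CPM in AML BM, 8784 CPM in normal spleen and 57548 CPM in normal BM. Both AML libraries thus lay below normal BM and above normal spleen. Of the 5 compared, 0 were called higher in AML BM than in normal BM (13.4% of all). In AML spleen against normal spleen, 4 of the 5 were called higher (25% of all) and 1 lower (21.3% of all). The part of these other cell types in the miR-155-5p levels was not tested. The myeloid miRNA miR-223-3p is highly expressed in granulocytes and monocytes. It had only 4 counts in AML spleen, 12 in AML BM, 28 in normal spleen and 10 in normal BM, all labelled as macrophages. The other arm, miR-223-5p, had more reads in each library, with 10 counts in AML spleen, 149 in AML BM, 36 in normal spleen and 42 in normal BM. The cause of the low counts of miR-223-3p was not tested.

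In the spleen, miR-155-5p was 4.27-fold lower in the AML library than in the normal one. AML spleen gave 95 counts and normal spleen 824. The log2 ratio was -2.09, with an exact conditional 95% interval of -2.42 to -1.79. The row was called lower. By the same rule 21.3% of the 216 miRNAs compared were lower in AML spleen and 25% higher, so a call by itself was common. miR-155-5p had the 7th lowest log2 ratio of the 216, whose median was -0.25.

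In the BM, miR-155-5p was 5.28-fold higher in the AML library than in the normal one. It had 100 counts in AML BM against 14 in normal BM. The log2 ratio was 2.40 with an interval of 1.59 to 3.32, wide because normal BM gave so few reads of miR-155-5p, and the row was called higher. Of the 216 miRNAs compared, 13.4% were higher in AML BM and 12% lower. miR-155-5p had the 5th highest log2 ratio of the 216, whose median was 0.0029.

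The AML-to-normal ratio of miR-155-5p thus had opposite signs in the 2 tissues, and the spleen log2 ratio minus the BM log2 ratio was -4.49 (exact conditional interval -5.46 to -3.60). This was the 3rd lowest of 186 miRNAs compared in both tissues. A call of lower in AML spleen together with higher in AML BM was shared by 11 of the 186 (5.91%), miR-155-5p among them. No replicates exist to set this difference against the spread between mice.

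**Figure D2:**
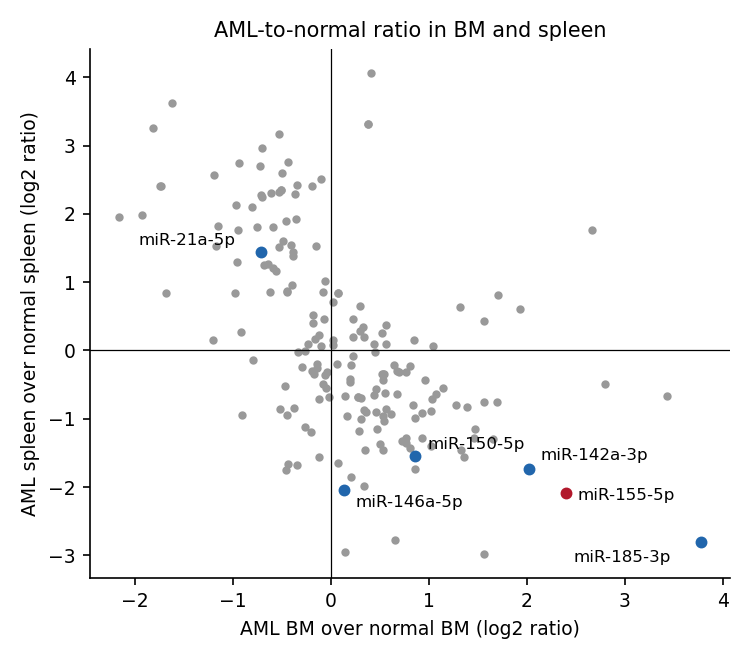
AML-to-normal log2 ratio in the BM (horizontal axis) and the spleen (vertical axis) for 186 miRNAs, 1 point each. miR-155-5p lies at 2.40 in the BM and -2.09 in the spleen, near miR-142a-3p at 2.02 and -1.73, with miR-185-3p, miR-146a-5p, miR-150-5p and miR-21a-5p named for comparison.

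At homeostasis the tissues differed more in miR-155-5p than the AML libraries did. Normal spleen had 824 counts against 14 in normal BM, a 31.1-fold difference, with a log2 ratio of 4.96 (4.21 to 5.84). It was the 3rd highest of 234 miRNAs compared, of which 30.8% were called higher in normal spleen and 35.5% lower, a balance that turned round under other scalings. Between the AML libraries, AML spleen stood 1.38-fold above AML BM, with a log2 ratio of 0.47 (0.045 to 0.89) that was not called. In that comparison 13.7% of 211 miRNAs were called higher in AML spleen and 21.3% lower. Each normal and each AML library enters a comparison between states and one between tissues, so these ratios are not separate evidence.

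An additive model of state and tissue over the 4 libraries is the fit that leaves a residual degree of freedom. In edgeR's quasi-likelihood test with Benjamini-Hochberg adjustment over 246 miRNAs, miR-155-5p had an AML effect of 0.076 on the log2 scale (adjusted p = 0.998). Its spleen effect was 2.65 (adjusted p = 0.758). The model averages the opposite changes of the spleen and the BM, and treats their difference as noise. No miRNA passed the threshold for the AML effect in edgeR, DESeq2 or limma, and 0 had an unadjusted p under 0.05 in any of these. For the spleen effect edgeR and limma called 0, with 15 and 22 under an unadjusted 0.05, while DESeq2 called 8 with 34 under it, without miR-155-5p (adjusted p = 0.19).

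Of the other miRNAs that inflammatory signalling induces, miR-146a-5p was called lower in AML spleen and miR-146b-5p higher in AML BM, as miR-155-5p was, and no other member was called in the direction of miR-155-5p in these comparisons, except miR-221-3p in the spleen with DESeq2 size factors. The list was chosen with earlier results of these data known and is described by counts only. Its sequences are shown because members with a shared seed can be compared with each other and with the unique seed of miR-155-5p. Capitals again mark the seed.
miR-146a-5p: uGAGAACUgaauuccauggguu
miR-146b-5p: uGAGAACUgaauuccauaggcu
miR-221-3p: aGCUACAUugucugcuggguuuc
miR-222-3p: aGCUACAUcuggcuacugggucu
miR-21a-5p: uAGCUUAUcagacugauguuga
miR-9-5p: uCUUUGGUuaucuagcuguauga
Of 14 members, 13 were listed and 6 had enough reads to compare in each comparison. In AML spleen against normal spleen, 2 of the 6 were higher, 1 was lower and 3 were neither, against 25% higher and 21.3% lower of all miRNAs compared. The median log2 ratio of the 6 was -0.69 (all miRNAs -0.25). In AML BM against normal BM, 1 was higher, 1 lower and 4 neither, against 13.4% higher and 12% lower of all miRNAs compared. The median was 0.14 (all miRNAs 0.0029). Both counts were thus close to the shares over all miRNAs.

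miR-146a-5p, which NF-kB induces and which limits the same pathway through Traf6 and Irak1, followed miR-155-5p in the spleen but not in the BM. It had 807 counts in AML spleen, 648 in AML BM, 6753 in normal spleen and 437 in normal BM. Its log2 ratio was -2.04 (-2.15 to -1.94) in AML spleen against normal spleen. In AML BM against normal BM it was 0.13 (-0.04 to 0.31), and it was not called. miR-146b-5p, which has the same seed from another gene, was called higher in AML BM than in normal BM, at 1.03 (0.79 to 1.28). In AML spleen against normal spleen it stood at -0.72 and was not called.

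miR-21a-5p, broadly expressed and induced by STAT3 and AP-1, went the other way in the spleen. AML spleen gave 6877 counts and normal spleen 5158, and at 1.44 (1.39 to 1.49) on the log2 scale it was called higher. In AML BM against normal BM it stood at -0.71 (-0.76 to -0.67), below 2-fold. miR-9-5p, abundant in neural tissue and also induced by Toll-like receptor signalling in human monocytes, was higher in AML spleen than in normal spleen at 2.57. It was lower in AML BM than in normal BM at -1.19, and this call ended, at -0.99, when the 10 most abundant miRNAs were left out of the totals.

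The paired X-linked miR-221-3p and miR-222-3p were called in neither AML comparison. Their log2 ratios were -0.998 and -0.66 in AML spleen against normal spleen, and 0.31 and 0.14 in AML BM against normal BM. With DESeq2 size factors miR-221-3p passed 2-fold in the spleen, at -1.24. The other 7 listed members (miR-146b-3p, miR-21a-3p, miR-9-3p, miR-132-3p, miR-212-3p, miR-147-3p and miR-187-3p) had at most 16 counts in any library and were not compared.

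**Figure D3:**
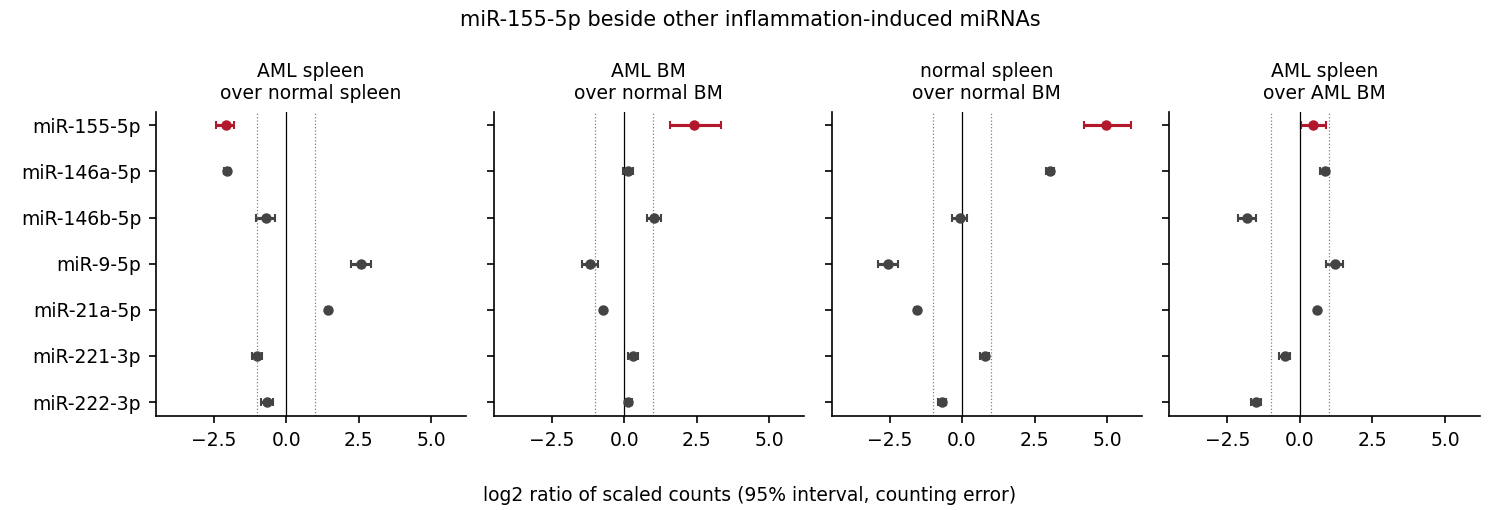
Log2 ratios with exact conditional 95% intervals for miR-155-5p and the 6 inflammation-induced miRNAs that could be compared, in the 4 comparisons; dotted lines mark 2-fold. miR-155-5p and miR-146a-5p lie together in AML spleen over normal spleen (-2.09 and -2.04) and apart in AML BM over normal BM (2.40 and 0.13).

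Ratios of reads within a library do not depend on how libraries are scaled, and against the pan-haematopoietic miR-142a-3p miR-155-5p varied little. There were 37.5 miR-155-5p reads per 100 miR-142a-3p reads in AML spleen, 58.8 in AML BM, 48.4 in normal spleen and 45.2 in normal BM. On the log2 scale this ratio changed by -0.36 (exact conditional interval -0.74 to 0.0032) in AML spleen against normal spleen. In AML BM against normal BM it changed by 0.38 (-0.65 to 1.48), and in normal spleen against normal BM by 0.099 (-0.86 to 1.13). These intervals include 0 but are wide where normal BM enters, and they reach beyond 2-fold there. Between AML spleen and AML BM the ratio did differ beyond counting error, by -0.65 (-1.16 to -0.13). miR-142a-3p itself had 253 counts in AML spleen, 170 in AML BM, 1704 in normal spleen and 31 in normal BM. The 5p arm of this hairpin, miR-142a-5p, was not used as a partner. Its share of miR-142a reads was 45.7% in AML spleen, 50.4% in AML BM, 38.1% in normal spleen and 68.4% in normal BM. In normal spleen against normal BM its log2 ratio was 3.05, against 4.96 for miR-155-5p. The small variation thus held for the 3p arm and not for the 5p arm.

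Against the other partner miRNAs the ratio of miR-155-5p was less even. Per 100 reads of miR-146a-5p there were 11.8 miR-155-5p reads in AML spleen, 15.4 in AML BM, 12.2 in normal spleen and 3.20 in normal BM. Normal BM therefore stood apart, and the change in AML BM against normal BM was 2.27 on the log2 scale (1.43 to 3.21), while in AML spleen against normal spleen it was -0.05 (-0.39 to 0.28). Per 100 reads of miR-150-5p, a miRNA of mature lymphocytes, there were 5.67 miR-155-5p reads in AML spleen, 26.4 in AML BM, 8.31 in normal spleen and 9.09 in normal BM. Here AML BM was the library that stood apart, at 1.54 (0.67 to 2.502) against normal BM, and AML spleen was below normal spleen by a smaller step of -0.55 (-0.88 to -0.24).

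Relative to miR-21a-5p, miR-155-5p spanned the widest range of the abundant partners. There were 1.38 miR-155-5p reads per 100 miR-21a-5p reads in AML spleen, 1.51 in AML BM, 15.98 in normal spleen and 0.174 in normal BM. Between AML spleen and AML BM the difference of this ratio was -0.13 on the log2 scale, with an interval of -0.55 to 0.30 that includes 0. Per 100 reads of miR-181a-5p, a lymphocyte and progenitor miRNA, there were 1.49 in AML spleen, 0.977 in AML BM, 2.88 in normal spleen and 0.513 in normal BM. Against miR-223-5p, the arm of miR-223 with more reads here, miR-155-5p had 9.50 reads per read in AML spleen, 0.671 in AML BM, 22.9 in normal spleen and 0.333 in normal BM. Its change was -1.27 (-2.36 to -0.044) in AML spleen against normal spleen and 1.01 (0.017 to 2.07) in AML BM against normal BM. Against miR-223-3p, with 4 to 28 counts, the change was -0.31 (-1.87 to 1.69) in AML spleen against normal spleen and 2.57 (0.92 to 4.18) in AML BM against normal BM.

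**Figure D4:**
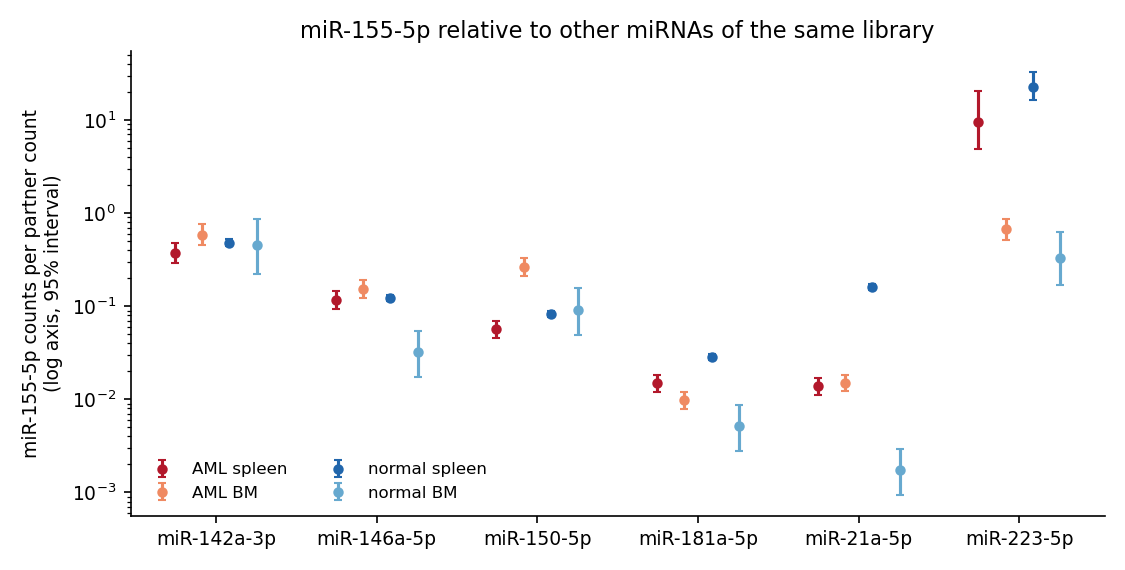
Reads of miR-155-5p per read of 6 partner miRNAs within each library (log axis), with exact conditional 95% intervals. Against miR-142a-3p the 4 libraries lie between 0.375 and 0.588, whereas against miR-21a-5p normal spleen is at 0.160 and normal BM at 0.00174.

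The miRNAs with a profile most like that of miR-155-5p were ranked by the root mean square distance between log2 levels over the 4 libraries, each profile centred on its own mean, among 245 miRNAs that reached 30 counts somewhere. The nearest was miR-142a-3p, at a distance of 0.23, against a median distance of 1.79. This distance rests on the same counts as the ratio to miR-142a-3p within each library, so it is not separate evidence. Sequences are shown for the nearest rows with over 100 reads in some library, with seeds in capitals, to show that none shares the seed of miR-155-5p.
miR-142a-3p: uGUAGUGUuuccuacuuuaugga
miR-142b: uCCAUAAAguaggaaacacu
miR-15b-5p: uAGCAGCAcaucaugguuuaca
miR-455-3p: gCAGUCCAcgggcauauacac
miR-142a-5p: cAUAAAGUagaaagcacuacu
miR-185-3p: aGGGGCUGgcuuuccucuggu
miR-339-5p: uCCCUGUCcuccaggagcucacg
The row miR-142b had the same 4 counts as miR-142a-3p. RefSeq puts it at chr11:87756906-87756925 on the minus strand, opposite miR-142a-3p at chr11:87756903-87756925 on the plus strand, so these rows are not 2 observations. No row had counts that matched those of miR-155-5p within 3% or 2 counts.

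Next came miR-5121 at 0.56, whose counts were low, at 13 in AML spleen, 8 in AML BM, 40 in normal spleen and 1 in normal BM. miR-15b-5p, of the miR-15/16 seed family that restrains the cell cycle, followed at 0.63, with 93 counts in AML spleen, 111 in AML BM, 558 in normal spleen and 32 in normal BM. Like miR-155-5p it was called lower in AML spleen than in normal spleen, at -1.56, and higher in AML BM than in normal BM, at 1.36. miR-455-3p at 0.69 had 129 counts in AML spleen, 73 in AML BM, 414 in normal spleen and 5 in normal BM. It was called higher in AML BM than in normal BM, at 3.43, but its -0.66 in AML spleen against normal spleen was not called. The other arm of the miR-142a hairpin, miR-142a-5p at 0.69, was called lower in AML spleen than in normal spleen, at -1.27. In AML BM against normal BM it stood at 0.93 and was not called. With the 10 most abundant miRNAs left out of the totals it was called higher there, at 1.13.

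The remaining rows of the nearest 10 were miR-505-5p (0.71), miR-339-3p (0.72), miR-185-3p (0.75) and miR-339-5p (0.77). miR-185-3p was the one of these called in both AML comparisons, at -2.80 in the spleen and 3.77 in the BM, from counts of 8 in AML spleen and 113 in normal spleen, and of 37 in AML BM and 2 in normal BM. With miR-142b left out as a repeat of miR-142a-3p, 5 of the other 9 were called lower in AML spleen than in normal spleen (21.3% of all miRNAs compared). All 9 were called higher in normal spleen than in normal BM (30.8% of all). Of the 6 with enough reads in AML BM or normal BM, 5 were called higher in AML BM (13.4% of all). Since the rows were chosen by these levels, the counts are a description only. On total counts the spleen call of miR-339-3p ended, at -0.94.

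**Figure D5:**
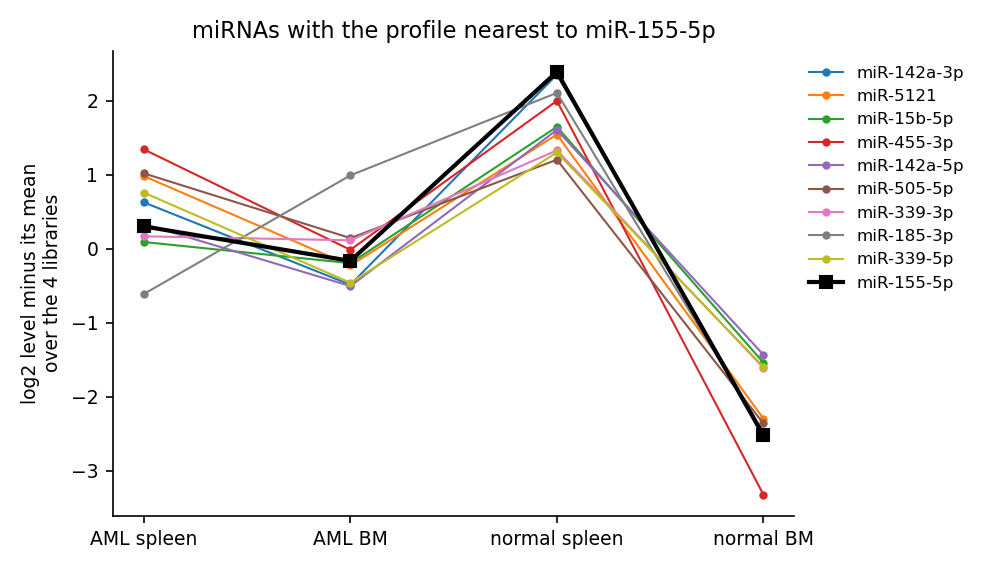
Log2 level in each library minus its mean over the 4 libraries, for miR-155-5p (black squares) and its nearest profiles (circles; miR-142b, the same counts as miR-142a-3p, is left out); lines join the values of 1 miRNA. miR-155-5p lies at 0.30 in AML spleen, -0.17 in AML BM, 2.39 in normal spleen and -2.52 in normal BM.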

How the data were processed

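The authors deposited 1 table of raw read counts, with 847 miRNA rows (43 named as predicted) and 4 libraries. Its TPM columns, so named per the file headers, equalled the deposited count divided by the library total times 1000000 and were used for this check only. For the aligner, the counter and the build, the entry is: not given in the sources used here. Libraries were grouped by title. No column of other samples was present (0).

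Scaling used edgeR 4.0.16 in R 4.3.3, with TMM factors of 1.07 in AML spleen, 1.03 in AML BM, 0.900 in normal spleen and 1.00 in normal BM. Pairs of libraries were compared by the ratio of scaled counts with an exact conditional 95% interval (scipy 1.17.1). Differences of ratios used the exact conditional odds ratio. An additive model (state and tissue) was fitted with edgeR, and with DESeq2 1.42.0 and limma 3.58.1 as alternatives, on the 246 miRNAs that reached 30 counts somewhere. The procedures were tested on simulated data. Profile distances used a prior count of 0.5. Mature sequences came from RefSeq on GRCm38.p6, where 673 of the 847 rows matched by name, and the hairpin was folded with RNAfold 2.7.2.

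The members, lists and tests were chosen with earlier results of these data known. Named miRNAs were both miR-155 arms, the inflammation-induced list, the marker lists, 7 partner miRNAs for ratios within a library, and the 10 nearest profiles. Alternatives were other scalings, other count minimums, other tools and a prior count of 2.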

Additional observations from a re-analysis of the deposited data

Results flagged for a closer look

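Of 186 miRNAs compared in both tissues, 11 were called lower in AML spleen and higher in AML BM, and 9 the other way round. Several miRNAs named above or in the marker lists were called in opposite directions in the spleen and the BM, AML against normal. This difference was not tested, since each group has 1 library, and its cause was not tested. For miR-155-5p the spleen log2 ratio minus the BM log2 ratio was -4.49. Negative differences (lower in AML spleen than in normal spleen, higher in AML BM than in normal BM) were found for miR-185-3p (-6.57), miR-142a-3p and miR-142b, which have the same counts (both -3.75), miR-15b-5p (-2.92), miR-181a-5p (-2.62) and miR-181b-5p (-2.42). Positive differences were found for miR-133a-3p (5.08), miR-1a-3p (4.14), miR-451a (4.11), miR-206-3p (3.90), miR-9-5p (3.75) and miR-199a-5p (2.98). On other scalings 3 of these lost a call in 1 tissue: miR-181a-5p in the spleen at -0.89 on total counts, and miR-9-5p (-0.99) and miR-199a-5p (-0.95) in the BM with the 10 most abundant miRNAs left out of the totals.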

How the results depend on the processing

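miR-155-5p kept its direction and its call in each of the 4 comparisons under DESeq2 size factors, total counts, totals that leave out the 10 most abundant miRNAs, and TMM on rows with at least 30 counts. Its log2 ratio ranged from -2.33 to -1.84 in AML spleen against normal spleen, from 2.40 to 2.60 in AML BM against normal BM, from 4.804 to 5.196 in normal spleen against normal BM and from 0.43 to 0.54 in AML spleen against AML BM. DESeq2 size factors and total counts moved every log2 ratio of AML spleen against normal spleen by -0.24 and 0.25. That split of 54 higher and 46 lower became 51 and 68 under the first and 64 and 36 under the second. In AML BM against normal BM, 29 higher and 26 lower became 39 and 19 when the 10 most abundant miRNAs were left out of the totals. In normal spleen against normal BM, 72 higher and 83 lower became 86 and 78 with DESeq2 size factors, 84 and 78 with those 10 left out, and 59 and 84 on total counts. With a minimum of 1 or 100 counts in place of 30, the numbers called became 179 and 64 (from 100) in AML spleen against normal spleen, 119 and 24 (from 55) in AML BM against normal BM, 259 and 96 (from 72 higher and 83 lower) in normal spleen against normal BM, and 141 and 37 (from 74) in AML spleen against AML BM, since the minimum decides how many miRNAs are compared. DESeq2 called 8 miRNAs for the spleen effect and edgeR 0, and the cause was not tested. Of 474 values of other named miRNAs under other scalings, an alternative added after the data were seen, 460 kept their direction and side of the rule, 8 lost a call, 6 gained one and 0 changed sign while called. Of the 10 nearest profiles, 9 remained with a prior count of 2 and 10 on total counts. No paired analysis was possible because the labels give no replicate numbers and each group has 1 library. In normal BM miR-155-5p rests on 14 reads. That library was not the shallowest, with a total of 206652 against 180227 in AML spleen. The 3p arm was below the floor in every library, including normal spleen with the largest total of 435492.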
